A study of Homo sapiens with 6 samples.

Results

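Glycolysis and the response to low oxygen were followed through 41 genes chosen by name. Of these, 25 encode glucose and lactate transporters, enzymes of glycolysis and kinases that regulate it, and 16 encode subunits and regulators of the hypoxia-inducible factors (HIF) or genes known to respond to them. All 41 were among the 15897 genes listed in the deposited table, and 39 were among the 14068 whose FPKM averaged 0.5 or more across the 6 libraries, the level required for a test. CA9 and CA12 lay below that level. SLC16A3 and EGLN3 passed it only through the group in which they were high, so these 2 genes had to differ, and counts over the other 37 tested genes are given beside those over all 39.

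The cells are labelled H1650, a line from a human lung adenocarcinoma, and the study asked which genes change when SETD2, which encodes a histone H3K36 methyltransferase, is depleted. RNA was sequenced from 3 libraries labelled control, whose genotype is given as wild type, and 3 labelled shSETD2. The study made 3 short hairpin RNA constructs against SETD2 in the PLKO.1 vector and used lentivirus to establish stable lines, and no vector is named for the control libraries. Whether the numbers 1 to 3 of the shSETD2 libraries stand for the constructs or for replicates of a single construct is not given in the sources used here. Nothing in these sources says that the libraries of a group came from separate cultures, so p-values measure only the spread between these samples, which may be technical. The values are FPKM, which adjusts for gene length and library size, so levels of different genes can be set side by side. Where 3 values stand in a line for a group, they follow the library numbers 1 to 3. The FPKM of all listed genes summed to between 218769 and 224603 per library. The per-library values are FPKM and not read counts, so how many reads lie behind a value is unknown.

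Glycolysis splits glucose into pyruvate in the cytosol, and pyruvate is then either oxidised in mitochondria or reduced to lactate and exported. Several steps are served by more than a single gene, and the isozymes differ in tissue distribution and regulation. When oxygen is low, the HIF alpha subunits escape hydroxylation by the EGLN enzymes and degradation through VHL, pair with ARNT and raise transcription of many genes, among them most glycolytic genes, and lung tumours are often glycolytic.

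SETD2, the targeted gene, was at 18.0 FPKM in control library 1, 10.2 in library 2 and 17.6 in library 3. The corresponding shSETD2 libraries were at 8.97, 8.09 and 12.2 FPKM. The groups overlapped, because control library 2 lay below shSETD2 library 3. The log2 fold change was -0.58 (standard error 0.24) and did not pass the threshold in limma (adjusted p = 0.0641). Without control library 2 it was -0.83 (adjusted p = 6.66e-03 from limma) and without shSETD2 library 3 it was -0.73 (adjusted p = 0.042 from limma). Without control library 1, control library 3 or shSETD2 library 2 it was -0.45, -0.46 and -0.47, and with median ratio scaling it was -0.25 (adjusted p = 0.377 from limma). Since the SETD2 values of the groups overlapped, directions are given for the libraries as labelled.

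Markers of cell type differed between the same groups. Of 12 markers of lung adenocarcinoma and lung epithelium, 3 were listed, and NAPSA and the surfactant protein genes were not. The 3 listed genes summed to 15.7, 15.9 and 15.5 FPKM in control and to 9.77, 9.36 and 9.53 in shSETD2, and ABCA3 was the most abundant in both groups. NKX2-1, a defining factor of lung epithelium, had a mean of 1.65 FPKM in the control group and was listed at 0 in all 3 shSETD2 libraries, while LAMP3 was higher, with means of 0.584 and 1.23 FPKM. The 10 of 11 general epithelial markers that were listed summed to 21.1, 18.6 and 20.0 FPKM in control and 519, 482.5 and 534 in shSETD2, with KRT18 the most abundant in both groups. EPCAM and CDH1, which define epithelium, had means of 0.710 and 1.27 FPKM in control and 0.220 and 0.0120 in shSETD2, while KRT7 and EGFR had means of 0.0208 and 4.08 in control and 81.9 and 77.6 in shSETD2. All 13 genes of a list typical of embryonic kidney lines were listed, with sums of 117.2, 113.4 and 114.6 FPKM in control and 56.7, 46.7 and 49.3 in shSETD2. NEFM was the most abundant of them in control, at 37.8 FPKM, and PAX8 in shSETD2, at 30.8 FPKM, and 7 of the 13 were listed at 0 in every shSETD2 library. PAX8, PAX2, LHX1, WT1 and OSR1 of the same list went the other way, from means of 0.0172, 0.739, 0.802, 1.22 and 0.108 FPKM in control to 30.8, 9.93, 4.65, 3.62 and 0.755 in shSETD2. Fibroblast markers (4 of 8 listed, COL1A1 the most abundant) summed to 4.04, 4.54 and 4.06 FPKM in control and 0.340, 0.292 and 0.311 in shSETD2. Blood cell markers (3 of 6 listed, CD68 the most abundant) stayed between 1.46 and 2.24 FPKM in every library, and 0 of 5 endothelial markers were listed. Within a group, log2 levels of any library pair had a Pearson r of 0.9845 to 0.9908, whereas a control paired with an shSETD2 library gave 0.7561 to 0.7608. Whether both groups are the labelled cell line was not tested, and a difference between the groups need not come from SETD2. The part of these marker differences in the results on glycolysis and hypoxia genes was not tested. In bulk RNA, fewer cells of a type and less RNA per cell cannot be told apart.

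The summed FPKM of the 41 genes was 1708, 1689 and 1758 in control and 2594, 2492 and 2613 in shSETD2. This was 0.767%, 0.769% and 0.787% of all FPKM in control and 1.18%, 1.14% and 1.16% in shSETD2. Of the 39 genes tested, 22 rose and 11 fell in shSETD2 with limma (adjusted p under 0.05), and 6 were neither. Among all 14068 genes tested, 78.6% passed this threshold, made up of 26.8% higher and 51.8% lower in shSETD2. The 33 called genes are thus 84.6% of the 39, near the background of 78.6%, whereas the higher ones are 56.4% and the lower ones 28.2%. Over the 37 genes with a mean of at least 0.5 FPKM in both groups, 21 were higher and 10 lower. The background depends on expression level. With a mean FPKM of at least 5, 33 of the genes were tested, with 21 higher and 8 lower. All genes then numbered 2401 higher and 3246 lower of 7078. The libraries of the groups did not overlap for 32 of the 39, against 80.9% of all genes tested. All shSETD2 libraries exceeded all control libraries for 21 genes (27.9% of all genes tested), and all lay below for 11 (53% of all genes tested). The median log2 fold change was 0.52 for the 39 genes and -0.29 for all genes tested.

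The scaling of the libraries bears on these splits. Over all genes, the median log2 fold change moved from -0.29 with FPKM as deposited to -0.11 after quantile normalization and -0.01 after median ratio scaling, and the share of called genes that were higher in shSETD2 moved from 34.1% to 43.2% and 49.6%. The split of the glycolysis and hypoxia genes was 20 higher and 12 lower after quantile normalization and 28 higher and 9 lower after median ratio scaling. With median ratio scaling the log2 fold changes of the 39 genes shifted upward by 0.11 to 0.35. Directions of the 39 genes held under every scaling except where stated, and single genes outside the 41 other than SETD2 are given on FPKM as deposited only.

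**Figure D1:**
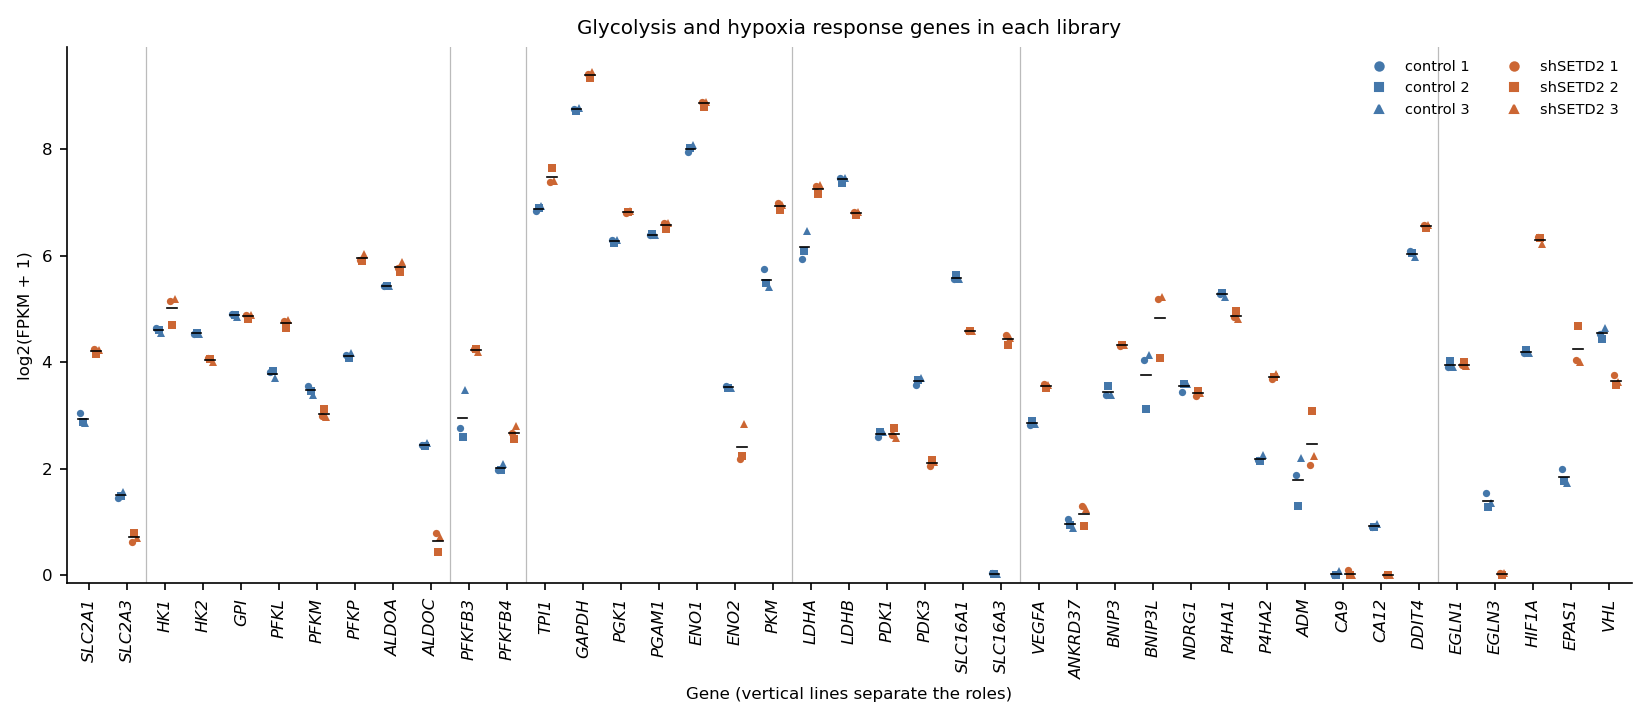
Level of each of the 41 genes in each library, as log2(FPKM + 1). Blue symbols are control and orange symbols shSETD2 libraries, the symbol shape gives the library number, black bars are group means and vertical lines separate the roles. SLC16A3 lies near 0 in every control library and at 19.1 to 21.8 FPKM in shSETD2 libraries, and CA12 is listed at 0 in every shSETD2 library.

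Glucose enters these cells through facilitative transporters. SLC2A1, which encodes the widespread transporter GLUT1 (chromosome 1 of GRCh37, 43391046 to 43424844), was at 7.28, 6.39 and 6.26 FPKM in control and 18.1, 16.8 and 17.8 in shSETD2. The 3 shSETD2 libraries lay close together and well above all control libraries. In limma the log2 fold change reached 1.28 (adjusted p = 4.63e-06, standard error 0.066). SLC2A3, which encodes the high-affinity transporter GLUT3 best known from neurons, was at 1.73, 1.83 and 1.95 FPKM in control and 0.553, 0.741 and 0.639 in shSETD2. It went the opposite way to SLC2A1, with no overlap, and fell by 0.79 on the log2 scale (adjusted p = 5.33e-05 from limma), or by 1.51 with a pseudocount of 0.01 and 0.36 after quantile normalization. Its share of the summed FPKM of both transporters was 21.8% ± 2.32 in control and 3.55% ± 0.634 in shSETD2 (SD, n = 3).

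The stretch from glucose to triose phosphates had 8 genes, of which 4 were higher (50%), 3 lower (37.5%) and 1 neither, against 26.8% and 51.8% of all genes tested. The split was 2 higher and 4 lower after quantile normalization and 5 and 2 with median ratio scaling. For all 14068 genes tested it was 4565 higher and 6013 lower after quantile normalization and 5305 and 5394 with median ratio scaling. HK1 and HK2 encode the hexokinases that trap glucose as glucose-6-phosphate. HK1 was at 24.1, 23.4 and 22.6 FPKM in control and 34.5, 25.1 and 35.5 in shSETD2, where library 2 stood apart near the control level. HK1 had a log2 fold change of 0.41 (adjusted p = 0.0248 from limma), with 0.75 under median ratio scaling and 0.56 without shSETD2 library 2 (adjusted p = 2.05e-03 and 1.45e-04 from limma). The call was lost after quantile normalization (0.21, adjusted p = 0.149 from limma) and in an ordinary linear model (adjusted p = 0.0762). It was also lost without control library 1, 2 or 3 (0.43, 0.41 and 0.39) and without shSETD2 library 1 or 3 (0.34 and 0.32), with adjusted p-values from limma between 0.0527 and 0.0784. HK2, the isozyme that HIF and growth signals induce, was at 22.2, 22.5 and 22.2 FPKM in control and 15.9, 15.7 and 15.0 in shSETD2, with little spread in either group. HK2 fell with a log2 fold change of -0.49 (adjusted p = 4.03e-05 from limma), and -0.16 with median ratio scaling. Together the hexokinases summed to 45.7 ± 0.820 FPKM in control and 47.3 ± 5.54 in shSETD2 (SD, n = 3), with overlap, but without overlap after median ratio scaling, where the ratio was 1.325, and after quantile normalization, where it was 0.916.

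GPI, which converts glucose-6-phosphate to fructose-6-phosphate, was between 27.7 and 29.2 FPKM in control and 27.0 and 28.7 in shSETD2 libraries. Its log2 fold change was -0.02 (95% confidence interval -0.12 to 0.09, adjusted p = 0.706 from limma), -0.23 after quantile normalization (adjusted p = 2.02e-03 from limma) and 0.32 with median ratio scaling (adjusted p = 6.1e-04 from limma), so its direction depended on the scaling.

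Phosphofructokinase, which commits sugar to glycolysis, is built from subunits of 3 genes. PFKP, the platelet-type subunit (ENSG00000067057.16_3, chromosome 10 of GRCh37, 3108525 to 3179904), was at 16.5, 16.0 and 17.0 FPKM in control and 59.9, 58.9 and 64.9 in shSETD2. All shSETD2 libraries were far above the control libraries, and the log2 fold change was 1.83 (limma adjusted p = 3.2e-07, standard error 0.050). PFKL, the liver-type subunit, was at 13.2, 13.3 and 12.0 FPKM in control and 26.4, 24.0 and 26.7 in shSETD2, also without overlap (log2 fold change 0.95, adjusted p = 1.33e-05 from limma). PFKM, the muscle-type subunit, was at 10.8, 10.02 and 9.50 FPKM in control and 7.01, 7.68 and 6.90 in shSETD2. It was the only subunit gene of the 3 with a lower level in shSETD2, at a log2 fold change of -0.44 (adjusted p = 8.71e-04 from limma), and with median ratio scaling it was -0.12 and not called (adjusted p = 0.128 from limma). The sum over the 3 genes went from 39.4 ± 1.02 to 94.1 ± 4.02 FPKM (SD, n = 3), and the share of PFKP from 41.9% ± 1.98 to 65.0% ± 0.844.

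PFKFB3 and PFKFB4 make fructose-2,6-bisphosphate, an activator of phosphofructokinase. PFKFB3 was at 5.80, 5.07 and 10.1 FPKM in control and 18.1, 18.1 and 17.4 in shSETD2. Control library 3 was the highest of its group and still below all shSETD2 libraries (log2 fold change 1.29, adjusted p = 1.62e-03 from limma). PFKFB4 was lower in level, at 2.97, 2.96 and 3.26 FPKM in control and 5.41, 4.88 and 6.02 in shSETD2, and was also higher in shSETD2 (log2 fold change 0.66, adjusted p = 2.9e-04 from limma).

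Aldolase cleaves fructose-1,6-bisphosphate. ALDOA, the form of muscle and most tissues, was between 42.2 and 42.4 FPKM in control and was at 53.9, 50.6 and 57.8 in shSETD2. ALDOA rose by 0.35 on the log2 scale (adjusted p = 8.89e-04 from limma), and it was 0.08 and not called after quantile normalization (adjusted p = 0.117 from limma) and 0.69 with median ratio scaling. ALDOC, the brain-type aldolase, was at 4.48, 4.38 and 4.58 FPKM in control and 0.741, 0.357 and 0.643 in shSETD2. The groups were far apart, and its log2 fold change of -1.80 was the lowest of the 39 genes at a pseudocount of 1 (limma adjusted p = 6.79e-06, standard error 0.10). At a pseudocount of 0.01 it was -2.99, above the -6.05 of EGLN3. ALDOC made up 9.58% ± 0.213 of aldolase FPKM in control and 1.05% ± 0.330 in shSETD2 (SD, n = 3).

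From triose phosphates to pyruvate, 6 of 7 genes were higher (85.7%) and 1 was lower (14.3%), against 26.8% and 51.8% of all genes tested. GAPDH, which oxidises glyceraldehyde-3-phosphate and which the study used as its reference gene in real-time PCR, had the highest FPKM of the 41 genes, at 431.6, 420.2 and 437.6 in control and 685.4, 646.9 and 698.0 in shSETD2. No shSETD2 library came near the control range, and the log2 fold change was 0.65 (limma adjusted p = 6.86e-06, standard error 0.036), with 0.75 after quantile normalization and 1.01 with median ratio scaling. ENO1, the main enolase, was at 245.4, 259.1 and 269.3 FPKM in control and 472.9, 444.7 and 475.0 in shSETD2. It also rose without overlap (log2 fold change 0.85, adjusted p = 5.67e-06 from limma). ENO2, the neuronal enolase, was at 10.7, 10.5 and 10.5 FPKM in control and 3.53, 3.71 and 6.15 in shSETD2. It fell in spite of a high shSETD2 library 3 (log2 fold change -1.12, adjusted p = 1.05e-03 from limma), and its share of enolase FPKM went from 3.95% ± 0.212 to 0.949% ± 0.289 (SD, n = 3).

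PKM, which encodes the pyruvate kinase of most tissues and tumours (ENSG00000067225.17_4, chromosome 15 of GRCh37, 72491370 to 72524163), was at 53.0, 44.2 and 41.6 FPKM in control and 127.1, 115.7 and 122.7 in shSETD2. The spread within each group was small beside the gap between them, and the log2 fold change was 1.38 (limma adjusted p = 1.58e-05, standard error 0.092). The table gives a single value for the gene, so the splice forms PKM1 and PKM2 are not told apart. TPI1, PGK1 and PGAM1, which encode the triose-phosphate isomerase, phosphoglycerate kinase and phosphoglycerate mutase of this stretch, had log2 fold changes of 0.59, 0.55 and 0.18 with adjusted p-values from limma of 3.11e-04, 6.93e-06 and 6.36e-03, and for none of them did the groups overlap. PGAM1 was at -0.03 after quantile normalization (adjusted p = 0.481 from limma), so its direction depended on the scaling, while TPI1 and PGK1 were at 0.37 and 0.33 there. With median ratio scaling TPI1, PGK1 and PGAM1 were at 0.95, 0.90 and 0.53. Of the genes from glucose to pyruvate, GAPDH carries 65 pseudogenes named after it in the annotation, PGAM1 13, PKM 5, and TPI1 and ENO1 4 each, and how the quantification divided reads that match such copies is not known.

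Summed over the 15 genes of the 10 enzyme steps from glucose to pyruvate, FPKM was 1178, 1171 and 1198 in control and 1892, 1822 and 1918 in shSETD2, a ratio of 1.59 between group means. Without GAPDH and ENO1, the most abundant genes, the ratio was 1.49, or 1.288 after quantile normalization and 1.905 with median ratio scaling. The steps differed in size. Pyruvate kinase had a ratio of 2.63 and phosphofructokinase of 2.39, against 1.14 for phosphoglycerate mutase and 0.987 for GPI. The ratio for all 15 genes was 1.56 after quantile normalization and 2.03 with median ratio scaling, and both pyruvate kinase and phosphofructokinase were at 2.21 after quantile normalization. Aldolase, with a ratio of 1.17, and phosphoglycerate mutase were at 0.993 and 0.979 after quantile normalization, with overlap.

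**Figure D2:**
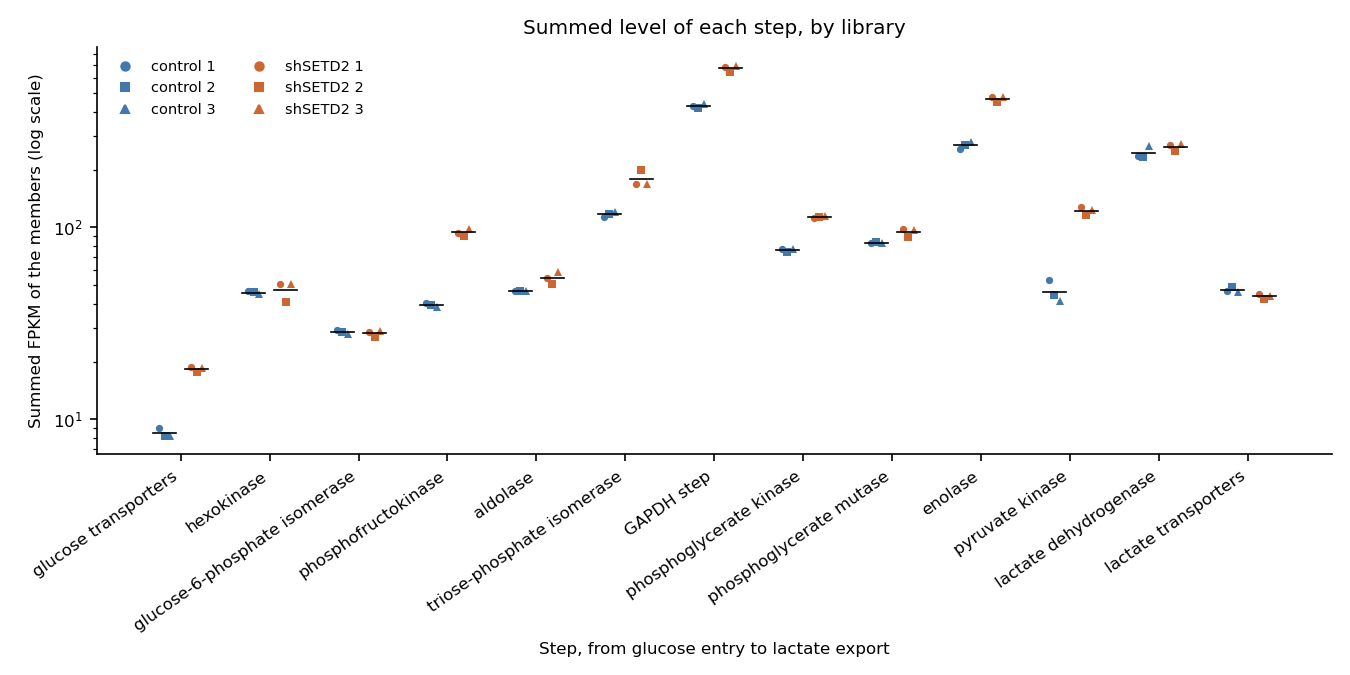
Summed FPKM of the genes at each step, on a log axis, from glucose transporters to lactate transporters. Blue symbols are control and orange symbols shSETD2 libraries, the shape gives the library number and black bars are group means. Phosphofructokinase (39.4 against 94.1) and pyruvate kinase (46.3 against 121.8) are furthest apart among the enzyme steps, while hexokinase, glucose-6-phosphate isomerase and lactate dehydrogenase overlap on FPKM as deposited.

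Lactate dehydrogenase interconverts pyruvate and lactate and is a tetramer of A and B subunits. LDHA (ENSG00000134333.13_3, chromosome 11 of GRCh37, 18415935 to 18429972) was at 60.6, 67.4 and 87.9 FPKM in control and 157.0, 141.8 and 159.9 in shSETD2. Control library 3 was the highest of its group and still below all shSETD2 libraries (log2 fold change 1.09, standard error 0.14, adjusted p = 3.41e-04 from limma). LDHB was at 176.3, 164.7 and 176.4 FPKM in control and 112.2, 108.3 and 111.7 in shSETD2. It was lower without overlap (log2 fold change -0.63, standard error 0.0385, adjusted p = 1.03e-05 from limma), and at -0.28 with median ratio scaling. The B subunit gene therefore took 70.7% ± 3.85 of lactate dehydrogenase FPKM in control and 42.0% ± 1.12 in shSETD2 (SD, n = 3), so that the more abundant subunit gene was LDHB in every control library and LDHA in every shSETD2 library. The sum of both genes was 244.4 ± 17.4 and 263.7 ± 11.8 FPKM, with overlap, and its ratio of 1.08 became 0.9255 after quantile normalization and 1.38 with median ratio scaling, both without overlap. The annotation holds 6 pseudogenes named after LDHA and 3 named after LDHB, and 17 of the 41 genes have such copies.

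Lactate leaves cells through monocarboxylate transporters. SLC16A3, which encodes the export transporter MCT4 of glycolytic cells (ENSG00000141526.16_3 in the table), was at 0.0374, 0.0173 and 0.0231 FPKM in control and at 21.8, 19.1 and 21.0 in shSETD2. It was close to absent in every control library and at a level near that of SLC16A1 in every shSETD2 library. The log2 fold change of 4.40 was the highest of the 39 genes (limma adjusted p = 3.26e-08, standard error 0.064), and its size depends on the pseudocount, with 7.36 at 0.1 and 9.20 at 0.01. SLC16A1, which encodes MCT1, was at 46.3, 48.6 and 46.2 FPKM in control and 23.0, 23.1 and 22.9 in shSETD2. It was lower in every shSETD2 library, opposite to SLC16A3 (log2 fold change -0.9992, adjusted p = 1.05e-06 from limma), and was at -0.65 with median ratio scaling. SLC16A3 made up 0.0554% ± 0.0230 of the FPKM of both transporters in control and 47.2% ± 1.82 in shSETD2 (SD, n = 3). Their sum was 47.1 ± 1.36 FPKM in control and 43.7 ± 1.32 in shSETD2, lower without overlap, but higher with median ratio scaling, where the ratio was 1.19. The SLC16A3 locus overlaps CSNK1D on the opposite strand, and whether the quantification used the strand is not stated. In all, 16 of the 41 genes overlap another protein-coding gene. For some, among them ALDOC, ENO2, EGLN3 and LDHB, that gene lies on the same strand, and how shared reads were divided is not known.

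Pyruvate dehydrogenase kinases turn pyruvate away from mitochondrial oxidation. PDK3 was at 10.9, 11.8 and 12.1 FPKM in control and 3.15, 3.49 and 3.36 in shSETD2, lower in every shSETD2 library (log2 fold change -1.54, standard error 0.061, adjusted p = 1.52e-06 from limma). PDK1, the isoform best known as a HIF target, was between 5.05 and 5.50 FPKM in control and between 4.98 and 5.81 in shSETD2, with overlap. Its log2 fold change was -0.00 (95% confidence interval -0.17 to 0.16, adjusted p = 0.978 from limma), 0.16 after quantile normalization (adjusted p = 0.0711 from limma) and 0.30 with median ratio scaling (adjusted p = 5.79e-03 from limma). PDK3 took 68.5% ± 0.302 of the FPKM of both kinases in control and 38.5% ± 1.57 in shSETD2 (SD, n = 3).

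**Figure D3:**
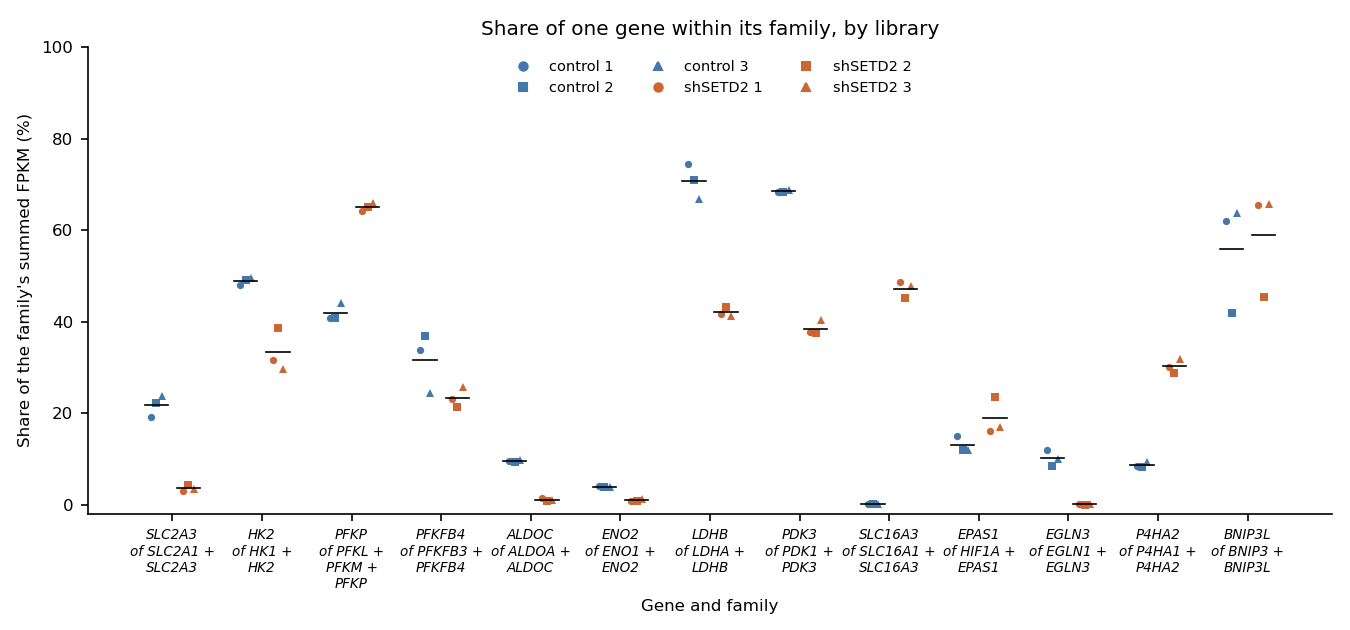
Percent that the first-named gene takes of the summed FPKM of its family, for 13 families. Blue symbols are control and orange symbols shSETD2 libraries, the shape gives the library number and black bars are group means. The groups do not overlap for 11 families, with LDHB at 70.7% against 42.0% and SLC16A3 at 0.0554% against 47.2%, and overlap for PFKFB4 and BNIP3L.

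Shares within a family do not depend on a factor common to a library. Of 14 families, 13 could be tested, since CA9 and CA12 were both listed at 0 in shSETD2 libraries 2 and 3. The share of the named gene did not overlap between the groups in 11 families, 2 of which hold SLC16A3 and EGLN3, with 4 higher (PFKP, SLC16A3, EPAS1 and P4HA2) and 7 lower (SLC2A3, HK2, ALDOC, ENO2, LDHB, PDK3 and EGLN3) in shSETD2. Each of the 11 had p = 0.1 in the two-sided exact permutation test, the smallest that 3 libraries against 3 allow, and 0.118 after Benjamini-Hochberg adjustment over the 13 families. Of all single genes tested, 80.9% did not overlap between the groups. The shares of PFKFB4 and BNIP3L overlapped, with p = 0.2 and 0.5 in the exact permutation test (0.217 and 0.5 adjusted).

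HIF1A and EPAS1 encode the oxygen-regulated alpha subunits HIF-1α and HIF-2α. HIF1A (ENSG00000100644.16_3 in the table) was at 17.2, 17.8 and 17.1 FPKM in control and 80.6, 80.0 and 73.5 in shSETD2. All shSETD2 libraries were well above the control level, with a log2 fold change of 2.11 (limma adjusted p = 1.4e-07, standard error 0.047). EPAS1 was at 3.02, 2.43 and 2.33 FPKM in control and 15.4, 24.7 and 15.1 in shSETD2. Library 2 was the highest of the shSETD2 group, and the groups did not overlap (log2 fold change 2.40, standard error 0.19, adjusted p = 3.85e-05 from limma). EPAS1 took 13.0% ± 1.70 of the FPKM of both subunits in control and 18.9% ± 4.07 in shSETD2 (SD, n = 3), a difference of 5.91 percentage points that was 3.58 without shSETD2 library 2 and 8.86 after quantile normalization.

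VHL, EGLN1 and EGLN3 encode proteins that mark HIF for destruction. On FPKM as deposited, VHL and EGLN3 were called lower in shSETD2, and EGLN1 was not called. VHL, the substrate receptor of the ubiquitin ligase, was at 22.1, 20.8 and 24.2 FPKM in control and 12.6, 10.9 and 11.5 in shSETD2. It was lower in every shSETD2 library (log2 fold change -0.89, adjusted p = 4.81e-05 from limma), and at -0.55 with median ratio scaling. EGLN1, the main prolyl hydroxylase, was between 14.03 and 15.3 FPKM in control and between 14.2 and 15.0 in shSETD2. Its log2 fold change was 0.01 (95% confidence interval -0.12 to 0.13, adjusted p = 0.93 from limma), and it was -0.03 after quantile normalization and 0.34 with median ratio scaling (adjusted p = 7.47e-04 from limma). EGLN3, a hydroxylase gene that HIF induces, was at 1.94, 1.42 and 1.57 FPKM in control and at 0.0268, 0 and 0.0317 in shSETD2. It was near 0 or listed at 0 in every shSETD2 library (log2 fold change -1.37, adjusted p = 9.94e-06 from limma, and -6.05 at a pseudocount of 0.01).

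Of the 11 other HIF-responsive genes 9 were tested, and 5 were higher (55.6%), 1 was lower (11.1%) and 3 were neither, against 26.8% and 51.8% of all genes tested. The split was 6 higher and 1 lower after quantile normalization and 8 and 0 with median ratio scaling. All 14068 genes tested split into 4565 higher and 6013 lower after quantile normalization and 5305 and 5394 with median ratio scaling. P4HA2, a collagen prolyl 4-hydroxylase subunit, was at 3.49, 3.46 and 3.80 FPKM in control and 11.9, 12.3 and 12.8 in shSETD2. P4HA2 rose by 1.54 on the log2 scale (limma adjusted p = 8.56e-07, standard error 0.054), whereas its paralog P4HA1 went from 38.2, 38.7 and 36.6 to 27.8, 30.2 and 27.2 FPKM (log2 fold change -0.40, adjusted p = 3.89e-04 from limma). P4HA1 was at -0.06 and not called with median ratio scaling (adjusted p = 0.324 from limma) and at -0.63 after quantile normalization, and P4HA2 took 8.66% ± 0.651 of the pair in control and 30.3% ± 1.52 in shSETD2 (SD, n = 3). VEGFA, the angiogenic growth factor, was at 6.13, 6.44 and 6.17 FPKM in control and 11.1, 10.4 and 10.9 in shSETD2 and was higher (log2 fold change 0.71, adjusted p = 1.62e-05 from limma). DDIT4, an inhibitor of mTORC1 signalling, was at 67.5, 65.2 and 62.0 FPKM in control and 95.02, 91.3 and 94.1 in shSETD2. It was also higher (log2 fold change 0.52, adjusted p = 3.63e-05 from limma), with 0.29 after quantile normalization and 0.87 with median ratio scaling.

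BNIP3 and BNIP3L encode mitophagy receptors. BNIP3 was at 9.52, 10.7 and 9.47 FPKM in control and 18.7, 19.1 and 19.0 in shSETD2, without overlap (log2 fold change 0.87, adjusted p = 1.35e-05 from limma). The annotation holds 44 pseudogenes named after BNIP3. BNIP3L was at 15.5, 7.73 and 16.6 FPKM in control and 35.6, 15.9 and 36.5 in shSETD2. Library 2 was the lowest in both groups, and shSETD2 library 2 fell within the control range. The log2 fold change was 1.07 (adjusted p = 0.045 from limma) and the call was lost after quantile normalization (0.97, adjusted p = 0.0655 from limma) and at a pseudocount of 0.01 (1.13, adjusted p = 0.0526 from limma), and an ordinary linear model gave an adjusted p of 0.12. It was also lost when control library 1, 2 or 3 was left out (1.20, 0.75 and 1.25) and without shSETD2 library 1 or 3 (0.89 and 0.87), with adjusted p-values from limma between 0.0518 and 0.13. BNIP3L was called higher without shSETD2 library 2 (1.44, adjusted p = 0.0102 from limma) and with median ratio scaling (1.40, adjusted p = 0.0174 from limma). With the replicate number as a block the adjusted p from limma was 1.57e-04. Without both libraries numbered 2, a comparison chosen after these values were seen, the log2 fold change was 1.12 (adjusted p = 2.54e-04 from limma).

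ADM, ANKRD37 and NDRG1 did not pass the threshold. ADM, which encodes the peptide adrenomedullin, was at 2.69, 1.46 and 3.60 FPKM in control and 3.19, 7.52 and 3.76 in shSETD2. Library 2 was the lowest control and the highest shSETD2 library, and without both libraries numbered 2 the log2 fold change went from 0.68 (95% confidence interval -0.13 to 1.48, adjusted p = 0.105 from limma) to 0.12 (adjusted p = 0.502 from limma). After quantile normalization and median ratio scaling ADM was called higher (adjusted p = 0.0371 and 0.0373 from limma). Without control library 2 or without shSETD2 library 2 alone it was 0.43 and 0.36. ANKRD37, a small HIF target with ankyrin repeats, was at 1.09, 0.936 and 0.855 FPKM in control and 1.45, 0.899 and 1.37 in shSETD2. Its log2 fold change was 0.19 (adjusted p = 0.172 from limma), and it was called higher without shSETD2 library 2 (0.30, adjusted p = 0.017 from limma), without both libraries numbered 2 (0.29, adjusted p = 0.0447 from limma), after quantile normalization (0.62, adjusted p = 1.88e-03 from limma) and with median ratio scaling (0.37, adjusted p = 0.0259 from limma). Without shSETD2 library 1 or 3 it was 0.12 and 0.14 (adjusted p = 0.416 and 0.367 from limma). NDRG1, a stress-responsive gene, was between 9.93 and 11.1 FPKM in control and 9.35 and 10.05 in shSETD2. Its log2 fold change was -0.13 (95% confidence interval -0.28 to 0.01, adjusted p = 0.0839 from limma), -0.18 and called lower without control library 1 (adjusted p = 0.0257 from limma), and 0.19 and called higher with median ratio scaling (adjusted p = 0.0225 from limma).

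The carbonic anhydrase genes CA9 and CA12 encode cell-surface enzymes that handle the acid of glycolytic cells. CA9, widely used as a marker of hypoxia, was listed at 0 in 4 of 6 libraries, with 0.0615 FPKM in control library 3 and 0.0733 in shSETD2 library 1. CA12 was at 0.873, 0.884 and 0.942 FPKM in control and listed at 0 in all shSETD2 libraries. Neither was tested, and no fold change is given.

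**Figure D4:**
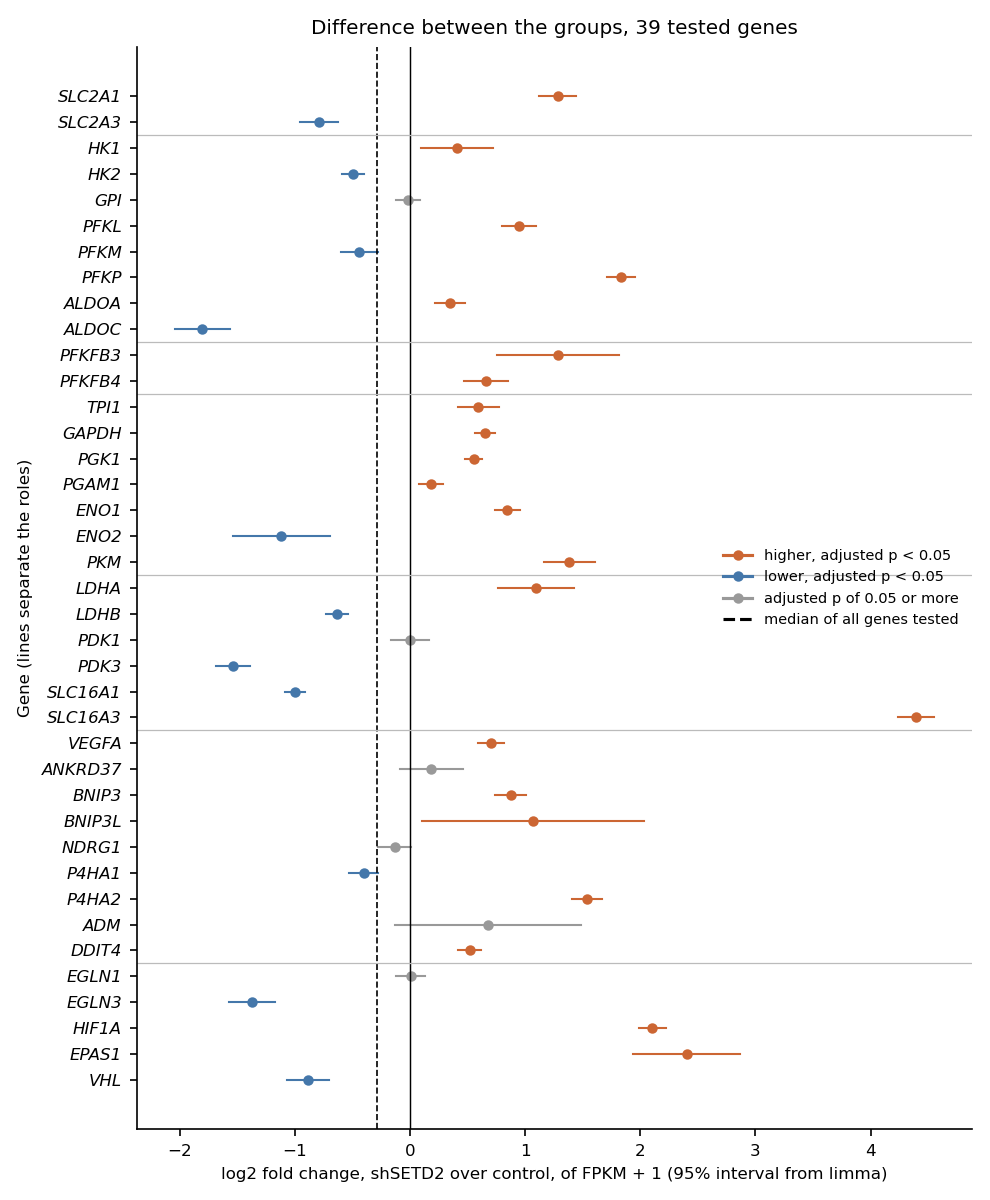
Log2 fold change of FPKM + 1, shSETD2 over control, of the 39 tested genes. Points are estimates and bars 95% confidence intervals from limma, orange for genes called higher, blue for lower and grey for neither, horizontal lines separate the roles and the dashed line is the median of all genes tested, -0.29. Values run from -1.80 for ALDOC to 4.40 for SLC16A3, and BNIP3L and ADM have the widest intervals.

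Promoters of the genes were searched for the core letters of the HIF motif. The RefSeq table of promoters (GRCh38.p14) matched 35 of the 41 genes with 62 promoters, each of 300 bases from 250 before to 50 after a start site. The motifs searched were ACGTG and GCGTG, with their reverse complements CACGT and CACGC for the other strand, and CACGTG counts as a match on each strand. Either motif was in 42 of the 62 promoters (67.7%), against 48.4% of all 35116 promoters of the same length. ACGTG was in 40.3% and GCGTG in 41.9%, against 21.4% and 36.5%. Promoters with either motif were 26 of 39 (66.7%) for genes called higher and 9 of 15 (60%) for genes called lower, and 5 of 6 (83.3%) for genes that were neither. ACGTG was in 30.8% of the promoters of genes called higher and in 53.3% for genes called lower, and GCGTG in 48.7% and 33.3%. These shares count promoters and not genes, and HK1 alone supplies 7 of the 39 and PFKM 7 of the 15. A match describes the letters in this window and is not evidence of binding.

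The 6 promoters below are examples chosen with the results known, and matches are in capitals. LDHA and LDHB are isozyme genes that moved in opposite directions, ALDOC is the isozyme gene with the lowest log2 fold change, SLC16A3 and EGLN3 were near 0 in a group and HIF1A encodes a HIF subunit. LDHA, higher in shSETD2, has 2 listed promoters, with 6 matches in the one shown (chr11:18394313-18394612, plus strand) and 1 in the other. LDHB, lower in shSETD2, has 1 (chr12:21657793-21658092, minus strand), and ALDOC has 5 (chr17:28576846-28577145, minus strand). SLC16A3 has 5 listed promoters with 0 to 3 matches, and the one shown holds 2 copies of ACGTG (chr17:82228792-82229091, plus strand). HIF1A has 2 listed promoters, of which the one shown has 1 match (chr14:61695263-61695562, plus strand) and EGLN3 has 0 (chr14:33951025-33951324, minus strand).
LDHA: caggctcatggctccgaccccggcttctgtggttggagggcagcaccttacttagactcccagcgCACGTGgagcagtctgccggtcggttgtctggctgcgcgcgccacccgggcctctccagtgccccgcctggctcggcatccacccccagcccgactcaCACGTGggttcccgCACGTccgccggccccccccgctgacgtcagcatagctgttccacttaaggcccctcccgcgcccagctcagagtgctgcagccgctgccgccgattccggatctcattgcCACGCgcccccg
LDHB: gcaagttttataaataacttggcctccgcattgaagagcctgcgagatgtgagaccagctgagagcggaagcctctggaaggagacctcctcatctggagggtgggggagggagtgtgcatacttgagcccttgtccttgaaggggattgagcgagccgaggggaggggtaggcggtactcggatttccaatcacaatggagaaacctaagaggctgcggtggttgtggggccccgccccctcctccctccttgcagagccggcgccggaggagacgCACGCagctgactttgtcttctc
ALDOC: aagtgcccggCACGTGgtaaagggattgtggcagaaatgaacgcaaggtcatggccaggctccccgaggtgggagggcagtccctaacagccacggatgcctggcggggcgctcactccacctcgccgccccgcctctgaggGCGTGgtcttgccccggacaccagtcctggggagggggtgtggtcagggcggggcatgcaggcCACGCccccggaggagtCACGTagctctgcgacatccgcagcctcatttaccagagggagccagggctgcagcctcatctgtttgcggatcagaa
SLC16A3: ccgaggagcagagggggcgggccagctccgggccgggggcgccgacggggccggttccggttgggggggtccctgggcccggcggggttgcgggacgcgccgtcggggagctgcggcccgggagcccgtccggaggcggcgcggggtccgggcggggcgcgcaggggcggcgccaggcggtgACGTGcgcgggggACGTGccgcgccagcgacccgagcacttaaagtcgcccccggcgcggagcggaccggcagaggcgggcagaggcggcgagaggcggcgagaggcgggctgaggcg
HIF1A: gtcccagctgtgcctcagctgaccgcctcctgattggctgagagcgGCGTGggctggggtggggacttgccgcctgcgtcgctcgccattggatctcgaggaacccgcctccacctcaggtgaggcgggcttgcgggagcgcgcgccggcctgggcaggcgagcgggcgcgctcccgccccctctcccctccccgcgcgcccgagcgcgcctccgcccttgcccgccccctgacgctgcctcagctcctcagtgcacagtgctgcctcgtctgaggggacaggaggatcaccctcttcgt
EGLN3: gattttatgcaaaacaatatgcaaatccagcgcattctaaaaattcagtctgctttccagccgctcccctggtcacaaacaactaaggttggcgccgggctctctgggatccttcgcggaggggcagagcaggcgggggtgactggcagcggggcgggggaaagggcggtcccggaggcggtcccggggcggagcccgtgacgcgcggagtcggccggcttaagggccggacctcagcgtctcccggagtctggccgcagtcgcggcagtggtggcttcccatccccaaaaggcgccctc

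Genes of the same pathways outside the 41 were counted in 3 lists. Of 42 other genes of glycolysis, pyruvate use and gluconeogenesis, 29 were listed and 28 tested, with 9 higher (32.1%) and 14 lower (50%) in shSETD2 by limma, against 26.8% and 51.8% of all genes tested, and a median log2 fold change of -0.14, or 0.18 with median ratio scaling, which gave 11 higher and 11 lower. Median ratio scaling gave 5305 higher and 5394 lower among all 14068 genes tested. Of the 28, 6 passed the filter through a single group only and so had to differ, and among the other 22 there were 7 higher and 10 lower. HKDC1, SLC16A7, SLC2A12 and PDK4 are among the 6. The highest was HKDC1, a hexokinase-related gene, at 0, 0.0593 and 0 FPKM in control and 2.91, 2.62 and 2.64 in shSETD2 (log2 fold change 1.87, adjusted p = 6.53e-07 from limma), followed by PC at 1.12 and SLC16A7 at 1.04. The lowest was SLC2A12, a glucose transporter gene, at 3.60, 4.25 and 3.70 FPKM in control and 0.268, 0.125 and 0.174 in shSETD2 (log2 fold change -2.03, adjusted p = 1.41e-06 from limma), followed by MPC1 at -1.54 and PDK4 at -1.215. MPC1 encodes a subunit of the mitochondrial pyruvate carrier.

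Of 17 other genes of the HIF pathway, 15 were listed and tested, with 4 higher (26.7%) and 6 lower (40%) in shSETD2 in limma, against 26.8% and 51.8% of all genes tested, and a median log2 fold change of 0.08. With quantile normalization the split was 6 higher and 5 lower, with a median log2 fold change of 0.10. With median ratio scaling the split was 8 higher and 3 lower, with a median of 0.42. Among all 14068 genes tested, 4565 were higher and 6013 lower after quantile normalization, and 5305 and 5394 with median ratio scaling. ARNT2 and ARNT, which encode partners of the HIF alpha subunits, were lower, with ARNT2 at 6.01, 6.52 and 6.02 FPKM in control and 3.15, 1.22 and 3.01 in shSETD2 (log2 fold changes -1.11 and -0.79, adjusted p = 5.06e-03 and 1.44e-03 from limma). HIF1AN, whose product hydroxylates HIF and restrains its activity, was at 11.04, 10.9 and 10.2 FPKM in control and 4.60, 4.51 and 4.40 in shSETD2 (log2 fold change -1.09, adjusted p = 2.67e-06 from limma). The highest were CUL2, a scaffold of the VHL ligase, and OS9 and SIAH1 (log2 fold changes 1.04, 1.01 and 0.43, adjusted p = 4.89e-05, 2.66e-05 and 3.43e-04 from limma).

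Of 39 other genes known to respond to HIF, 37 were listed and 36 tested, with 19 higher (52.8%) and 13 lower (36.1%) in shSETD2 in limma, against 26.8% and 51.8% of all genes tested. The median log2 fold change was 0.19, or 0.29 after quantile normalization and 0.51 with median ratio scaling. For all genes tested it was -0.29, or -0.11 and -0.01 with these scalings. Of the 36, 9 passed the filter through a single group only and so had to differ, LOX, CXCR4 and RORA among them, and the other 27 held 16 higher and 7 lower. STC1, a stanniocalcin gene, and ERRFI1, a feedback inhibitor gene of EGFR signalling, had log2 fold changes of 4.51 and 3.97 (adjusted p = 2.26e-08 and 3.88e-08 from limma). The lowest was LOX, a lysyl oxidase gene, at 3.39, 3.28 and 3.23 FPKM in control and 0, 0.0158 and 0.0340 in shSETD2 (log2 fold change -2.08, adjusted p = 2.15e-07 from limma), followed by CXCR4 at -1.98 and RORA at -1.57. In each of these 5 genes the groups did not overlap, as in 80.9% of all genes tested, and LOX, CXCR4 and RORA had to differ.

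**Figure D5:**
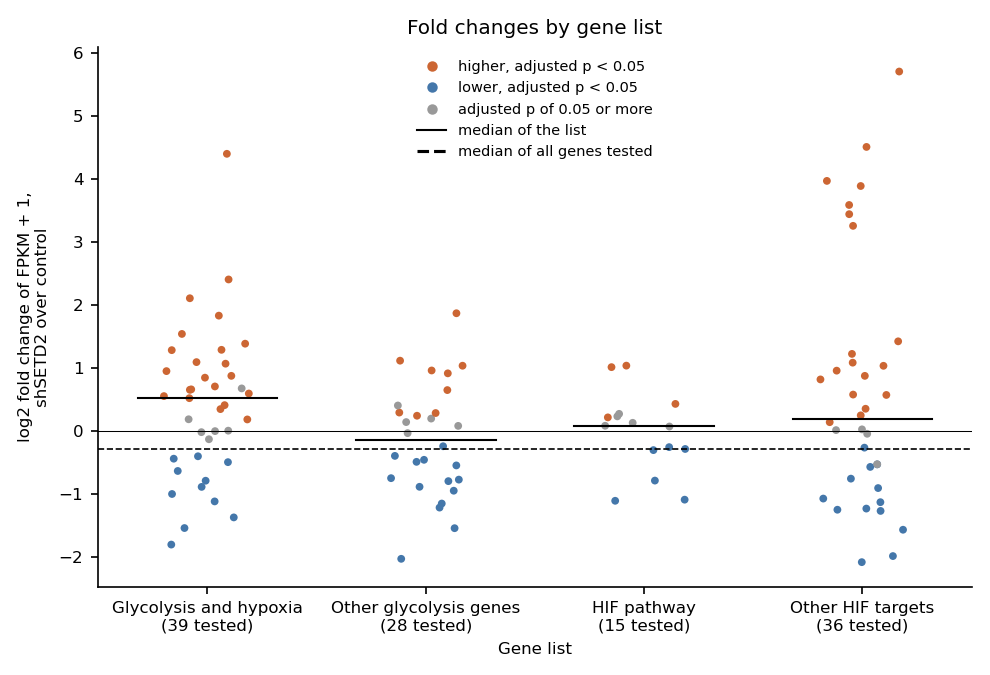
Log2 fold change of FPKM + 1, shSETD2 over control, for each tested gene of 4 lists. Points are genes, orange where called higher, blue where called lower and grey where neither, solid bars are list medians (0.52, -0.14, 0.08 and 0.19 from left to right) and the dashed line is the median of all genes tested, -0.29. Points are spread sideways at random for visibility.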

How the data were processed

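RNA-seq of 6 libraries, 3 labelled control and 3 labelled shSETD2, was analysed. The authors mapped reads to hg19 with Hisat2, quantified genes with Ballgown and deposited FPKM. Tool versions, the annotation release and the filter behind the listed genes are not given in the sources used here. A table with the authors' own comparison (log2 fold change, fold change, p and q) was not used. All columns of per-library values were matched to a library by name.

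Genes averaging 0.5 FPKM or more were tested on log2(FPKM + 1), a scale that understates the change of low genes, with limma 3.58.1 (lmFit, then eBayes with an intensity trend) under R 4.3.3, with Benjamini-Hochberg adjustment over all 14068 genes and a threshold of 0.05. The code of the fit was tested on simulated data in which few genes changed, unlike in these data. Family shares were compared with a two-sided exact permutation test. Python 3.11.15, numpy 2.4.6, pandas 2.3.3, scipy 1.17.1 and matplotlib 3.10.9 were used. Depth and counting error are unknown, so precision rests on the spread over 3 libraries. Positions are as deposited (GRCh37), overlapping genes and pseudogenes are from GENCODE release 44 lifted to that build, and promoters are from RefSeq on GRCh38.p14.

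Named genes were all 41 genes and, of each other list, genes among the 3 highest and 3 lowest log2 fold changes past the threshold. The genes and lists were chosen with earlier results of these data known. Alternatives were pseudocounts of 0.1 and 0.01, median ratio, quantile and upper quartile scaling, no filter or a stricter filter at 5 FPKM, no trend, an ordinary linear model, the replicate number as a block and each library left out. Leaving out both libraries numbered 2 was chosen after seeing the data.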

Additional observations from a re-analysis of the deposited data

How the results depend on the processing

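Over 17 alternatives, 614 of 657 log2 fold changes of the tested genes kept their direction and their side of the threshold, 18 lost a call, 9 gained a call and 16 reversed, in 12 genes. The number called higher ranged from 20 to 28 and the number called lower from 8 to 12. GPI was at 0.32 with median ratio scaling, at 0.0098 without both libraries numbered 2, a comparison chosen after seeing the data, and between -0.0368 and 0.0098 with a single library left out. PGAM1 was at -0.0313 after quantile normalization. PDK1 was at 0.0138 with upper quartile, 0.16 with quantile and 0.30 with median ratio scaling, and between -0.0554 and 0.0385 with a library left out. NDRG1 was at 0.19 with median ratio scaling. EGLN1 was at -0.0279 after quantile normalization and between -0.0170 and 0.0431 with a library left out. The difference in the share of BNIP3L lay between -3.86 and 9.82 points with a library left out. In each case the cause was not tested. With a mean FPKM of at least 5 fewer genes were tested. The other glycolysis genes then numbered 5 higher and 9 lower of 17 (9 and 14 of 28 before), and the other HIF pathway and target genes 21 higher and 7 lower of 35 (23 and 19 of 51 before), while all genes numbered 2401 higher and 3246 lower of 7078 (3774 and 7283 of 14068 before).

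The replicate block, a term for the library number, left 22 genes higher and 11 lower, and 10976 of all genes called. Deviations of libraries with the same number correlated at -0.0237, 0.0177 and -0.0077 across the groups, so the numbers carry no visible pairing. SETD2 kept a log2 fold change of -0.58 with the replicate block and gained a call (adjusted p = 0.0156 from limma, 0.0641 without).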
